A study of Mus musculus with 20 samples.

Results

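Ageing of the Slc24a4-deficient mouse aorta was followed in 10 RNA sequencing libraries, 5 from mice of 72 to 78 weeks and 5 from mice of 12 to 15 weeks. Slc24a4, also called Nckx4, encodes a potassium-dependent sodium/calcium exchanger of the cell membrane. All mice were female, and every library pooled cleaned aortic tissue of 2 animals, so that a pool and not a mouse is the replicate. Both groups carry the same genotype, which the labels write as KO or Nckx4-/- while also using the word knockdown; the cells in which the gene was disrupted and the origin of the line are not given there. The older libraries are called aged KO and the younger ones young KO. The study held 20 libraries in 4 groups, the others being wild-type (WT) aorta of the same ages with 5 pools each.

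All gene rows of the authors' deposited table for aged KO against young KO are described, 2083 of the 3696 genes that appear in any of the 3 deposited tables. The table holds called genes only, with an adjusted p under 0.05 by the authors' test, and gives one log2 fold change with its standard error (SE), p-values and a mean normalized count per gene. Positive values are higher in aged KO. Values of single libraries were not analysed here, so no value per pool, no overlap between pools and no depth can be given. Group means quoted below were worked out from the deposited mean and fold change of the gene and are approximate, since the fold changes are shrunken towards 0. They serve to compare ages within a gene, never one gene with another.

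The aortic wall is built of smooth muscle cells, an endothelial lining and an adventitia of fibroblasts, and in the mouse it is surrounded by fat that has features of brown adipose tissue. With age arteries stiffen as elastic fibres fragment and collagen is remodelled. Mitochondrial respiration, the circadian clock, glucocorticoid signalling and the heat shock response are all active in the vessel wall, and each has a well-described set of target genes.

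Of 14477 tested genes 2083 were listed, 14.4%, with 1116 higher (7.71%) and 967 lower (6.68%) in aged KO. Most changes were small. In the authors' deposited table the absolute log2 fold change had a median of 0.33 and ranged from 0.13 to 2.54. It was at least 0.5 in 532 genes, 284 higher and 248 lower, and at least 1 in 99 genes, 56 higher and 43 lower. With the listed genes in 4 bins of about 520 by mean count, the median absolute fold change was 0.53 in the lowest bin and 0.33, 0.27 and 0.24 in the next, so that small changes were listed mainly among well-counted genes. The share of higher genes was 45.3% in the lowest bin and 61.5% in the third. The rows nearest to the threshold in the authors' deposited table were Kdm2b at −0.21, Mapkapk3 at 0.36 and Spata13 at −0.17, with adjusted p of 0.0492, 0.0492 and 0.0494.

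Slc24a4 itself was not listed in this comparison, in which both groups carry the altered gene, so its RNA gives no check of the labels here. Nor was it listed in young KO against aged WT, where the genotypes differ, so that no deposited table bears out the knockout label by the RNA of the gene. It was listed in WT ageing alone, at −2.0 (SE 0.46) in the authors' deposited table. Of 21 genes near Slc24a4 on its chromosome 3 were listed in KO ageing, 14.3% against 14.4% of all tested genes. The authors' deposited table gave 0.75 (SE 0.10) for Rin3, a regulator of RAB GTPases, −0.74 (SE 0.32) for Tc2n, and −0.35 (SE 0.09) for Fbln5, which organises elastic fibres. None of them was listed in WT ageing.

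**Figure D1:**
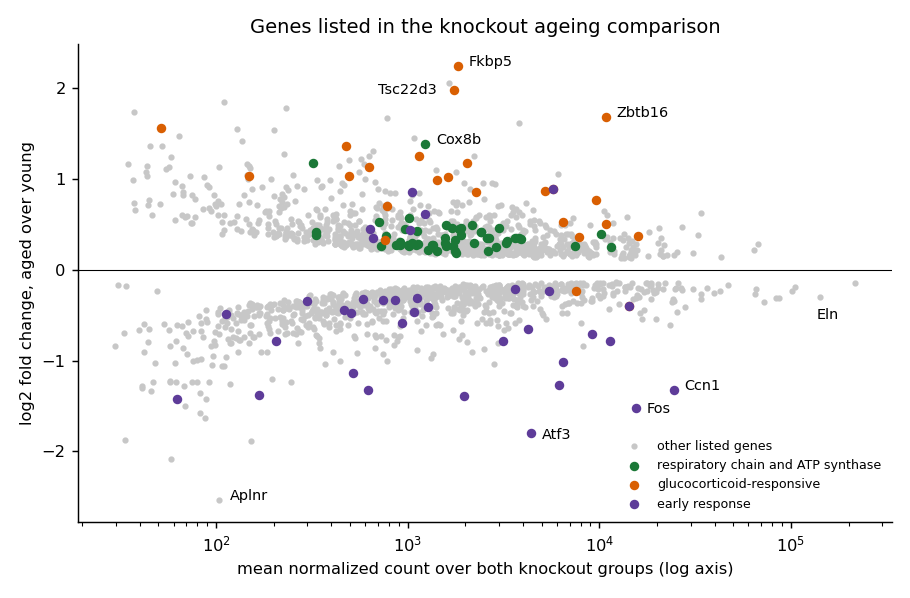
Log2 fold change of aged over young KO aorta (vertical) against the mean normalized count over both groups (horizontal, log axis) for each of the 2083 listed genes. Glucocorticoid-responsive genes reach 2.25 at Fkbp5, early response genes lie mostly below 0 down to −1.80 at Atf3, and respiratory chain genes form a band between 0.19 and 1.39.

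Glucocorticoid-responsive genes were among the largest increases. Glucocorticoids bind the receptor coded by Nr3c1, which then acts on transcription. Of 39 genes on the list 24 were listed, 22 higher and 2 lower, with a median of 0.94 against 0.18 over all listed genes. This is 61.5% of the list against 14.4% of all tested genes; here and below a list counts all its genes, whether or not they were tested. The gene with the smallest p of the whole table was Fkbp5, a co-chaperone that restrains the receptor, whose group mean went from 634 in young KO to 3017 in aged KO, a log2 fold change of 2.25 (SE 0.08) with an adjusted p of 5.77e-160 in the authors' deposited table. Zbtb16, a zinc finger transcription factor, went from 5102 to 16463, or 1.69 (SE 0.09) in the authors' deposited table. Tsc22d3, which codes for the anti-inflammatory leucine zipper protein GILZ, went from 707 to 2787, or 1.98 (SE 0.11) in the authors' deposited table. By the deposited folds these 3 genes were 4.76, 3.23 and 3.94 times as abundant in aged as in young KO.

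Transcription factors and inhibitors of signalling moved with them. The authors' deposited table gave 1.25 (SE 0.12) for Cebpd and 1.18 (SE 0.10) for Klf15, both transcription factors of metabolism and differentiation, and 0.51 (SE 0.06) for Klf9. Nfkbia, the inhibitor that holds NF-kappaB in the cytoplasm, was at 1.02 (SE 0.09), and Errfi1, an inhibitor of the EGF receptor, at 0.89 (SE 0.09) in the authors' deposited table. The kinase gene Sgk1, which acts on sodium channels, was at 0.86 (SE 0.10), and Ddit4, an inhibitor of mTORC1, at 1.03 (SE 0.18) in the authors' deposited table. For metabolic members the authors' deposited table gave 0.77 (SE 0.08) for glutamine synthetase (Glul), 0.70 (SE 0.10) for the sulphotransferase gene Sult1a1, 1.04 (SE 0.22) for Mt2 and 0.99 (SE 0.23) for Mt1, which code for metal-binding metallothioneins, and 1.56 (SE 0.39) for Pnmt, the enzyme that makes adrenaline. Fam107a (1.37, SE 0.19), Arrdc2 (1.13, SE 0.12), Mertk (0.53, SE 0.06), Foxo3 (0.36, SE 0.06) and Adamts1 (0.37, SE 0.09) were higher as well in the authors' deposited table. Hsd11b1, which regenerates active glucocorticoid inside cells, was at 0.33 (SE 0.12) in the authors' deposited table. The receptor gene Nr3c1 fell, from 8149 to 6948, or −0.23 (SE 0.07) in the authors' deposited table, as did the phosphatase gene Dusp1, at −0.40 (SE 0.21). Per1 and Ddit4 stand on other lists as well, and Errfi1 and Dusp1 are early response genes too.

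Of the same 39 genes 13 were listed in WT ageing, 11 higher and 2 lower. Of all tested genes WT ageing listed 12.0%, 5.26% higher and 6.76% lower. The 10 genes listed in both comparisons all had the same direction. The increases of Fkbp5, Klf15 and Nfkbia were larger in KO. For Klf15 the authors' deposited tables gave 1.18 (SE 0.10) in KO and 0.55 (SE 0.10) in WT, and the difference of 0.63 had an adjusted p of 0.000171 by the test of the difference. That test divides the difference of the deposited folds by the root of their summed squared SEs. Its two-sided normal p is adjusted over the 438 genes listed in both tables, of which 131 (29.9%) passed 0.05. Only genes already called in both comparisons enter it. A gene called with opposite signs therefore passes almost by construction, and its adjusted p adds little to those calls. Nfkbia stood at 0.39 (SE 0.15) in WT in the authors' deposited table, with an adjusted p of 0.00154 for the difference. Fkbp5 stood at 1.06 (SE 0.39) in WT in the authors' deposited table; the adjusted p of its difference was 0.0124, and this call was lost when the folds were rescaled to the deposited p. Arrdc2 (0.94, SE 0.17), Mertk (0.45, SE 0.10) and Sult1a1 (0.66, SE 0.14) in WT gave adjusted p from 0.611 to 0.909 for the difference from KO, with folds from the authors' deposited table.

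Beside that list, other genes with the smallest p were Zdhhc23, a palmitoyltransferase gene (2.06, SE 0.10), Cyb561, coding for a transmembrane electron carrier (1.08, SE 0.07), and Acss1, the mitochondrial acetyl-CoA synthetase gene (1.45, SE 0.11), all in the authors' deposited table. Zdhhc23 went from 640 to 2667 and Acss1 from 579 to 1582 in group mean. The stress kinase genes Map3k6 (1.10, SE 0.08) and Map3k5 (0.66, SE 0.06), the antiproliferative gene Tob2 (1.06, SE 0.08), Camta1, a calmodulin-binding transcription factor (0.96, SE 0.07), and the cell survival gene Bcl2l1 (0.96, SE 0.08) followed in the authors' deposited table. Adamtsl2, a secreted protein that binds fibrillin and TGF-beta binding protein, went from 372 to 1183, or 1.67 (SE 0.15) in the authors' deposited table.

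Clock genes changed in both arms of the loop. In the circadian clock BMAL1, with CLOCK or NPAS2, binds E-boxes and drives Per, Cry, Nr1d and Dbp, whose products close the loop. Of 32 clock genes on 3 lists 16 (50%, against 14.4% of all tested genes) were listed, 12 higher and 4 lower. The E-box, CACGTG on either strand, is shown here in 2 promoters of clock genes that rose, from 250 bases before to 50 after the RefSeq gene start, with the E-boxes in capitals (RefSeq, build GRCm38.p6). Per1 has 2 promoters in the RefSeq table. The window shown is chr11:69098699-69098998 on the plus strand and has 1 match, which starts 166 bases before the gene start. The Ciart window is chr3:95882179-95882478 on the minus strand and has 3 matches, which start 116, 58 and 44 bases before it.
Per1: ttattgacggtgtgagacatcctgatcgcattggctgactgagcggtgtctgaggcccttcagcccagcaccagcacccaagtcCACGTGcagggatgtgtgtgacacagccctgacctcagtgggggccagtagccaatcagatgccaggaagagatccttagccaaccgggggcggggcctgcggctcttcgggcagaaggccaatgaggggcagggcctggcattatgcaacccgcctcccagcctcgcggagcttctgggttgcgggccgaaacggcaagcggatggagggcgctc
Ciart: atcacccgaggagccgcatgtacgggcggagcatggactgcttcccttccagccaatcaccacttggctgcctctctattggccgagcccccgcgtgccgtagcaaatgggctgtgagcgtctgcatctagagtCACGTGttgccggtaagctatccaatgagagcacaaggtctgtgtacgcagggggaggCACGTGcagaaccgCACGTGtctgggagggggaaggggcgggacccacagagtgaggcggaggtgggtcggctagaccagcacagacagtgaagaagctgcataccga
An E-box was found in 4 of the 14 listed clock genes with a promoter in the RefSeq table, namely Per1, Ciart, Bhlhe41 and Tef, against 8.91% of the promoters of all 17492 coding genes there and 12.6% of those of all higher genes. It was also found in 7 of 27 listed genes of the early response and in 5 of 20 of the glucocorticoid list. A match is a description of the letters and not a measured binding site.

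The activator genes were lower in aged KO. Npas2 went from 1758 to 897 and Bmal1 from 1457 to 792, with log2 fold changes of −0.97 (SE 0.12) and −0.88 (SE 0.14) in the authors' deposited table, while Clock was at −0.16 (SE 0.06). Of the repressor genes 6 were higher and 1 lower. Ciart, an inhibitor of the BMAL1 complex, went from 74.3 to 199, or 1.42 (SE 0.21) in the authors' deposited table. Per1 was at 0.87 (SE 0.09), Per2 at 0.74 (SE 0.09) and Bhlhe41 at 0.49 (SE 0.10) in the authors' deposited table. The receptor genes Nr1d1 (0.25, SE 0.08) and Nr1d2 (0.28, SE 0.08), which repress Bmal1, were higher, and Cry2 was lower at −0.30 (SE 0.09) in the authors' deposited table. All 6 listed output genes were higher. The authors' deposited table gave 0.96 (SE 0.13) for the mitotic kinase gene Wee1, 0.65 (SE 0.11) for Dbp and 0.34 (SE 0.07) for Tef, both PAR bZIP transcription factors, 0.63 (SE 0.20) for Noct, 0.38 (SE 0.07) for Nampt, which makes a precursor of NAD, and 0.24 (SE 0.10) for the deubiquitinase gene Usp2. The labels give no time of day for tissue collection.

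In WT ageing 9 of the 32 clock genes were listed, 1 higher and 8 lower, against 12.0% of all tested genes. For 5 genes listed in both comparisons the directions were opposite, with positive values in KO and negative values in WT. The WT values in the authors' deposited table were −0.58 (SE 0.12) for Bhlhe41, −0.34 (SE 0.09) for Nr1d2, −0.27 (SE 0.10) for Tef, −0.75 (SE 0.21) for Noct and −0.27 (SE 0.13) for Usp2. The adjusted p of the difference was 1.01e-09 for Bhlhe41, 6.18e-06 for Nr1d2, 2.10e-05 for Tef, 3.04e-05 for Noct and 0.00922 for Usp2. Cry2 (−0.34, SE 0.11) and Nampt (0.24, SE 0.10) in WT had the same sign as in KO in the authors' deposited tables, with adjusted p of 0.903 and 0.518 for the difference. The activator genes Npas2, Bmal1 and Clock were not listed in WT ageing. In the comparison of young KO with aged WT, which shares the young KO libraries, the authors' deposited table, with its signs turned so that positive is higher in young KO, gave 2.01 for Npas2, 1.91 for Bmal1, −1.54 for Dbp and −2.27 for Ciart.

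**Figure D2:**
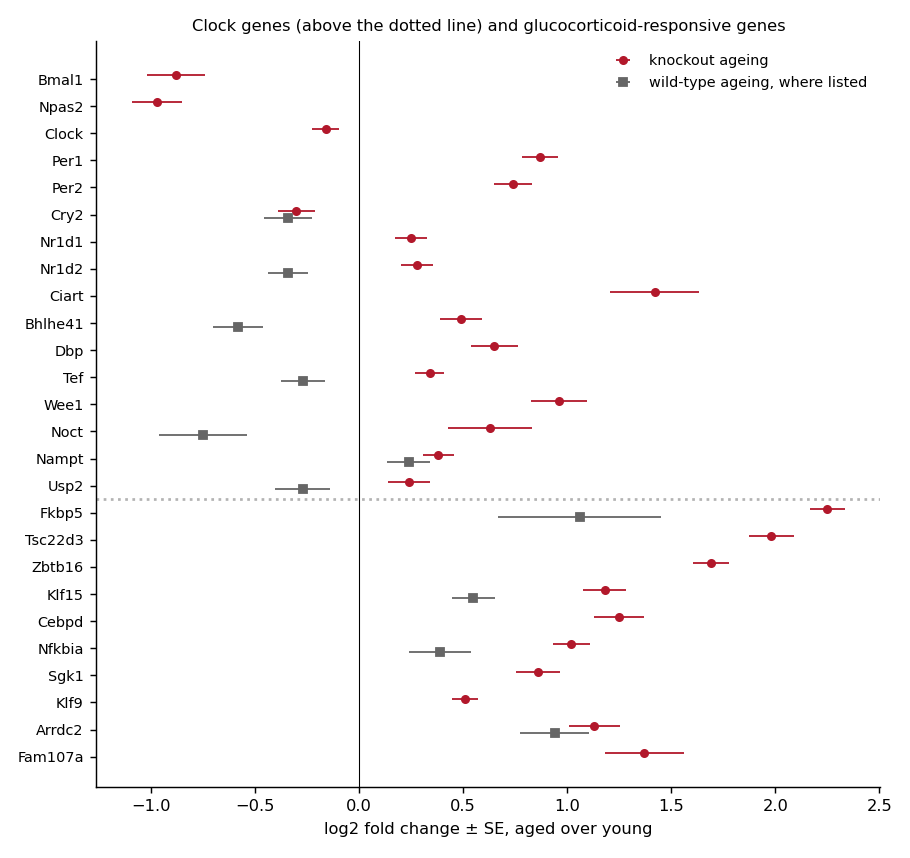
Log2 fold change of aged over young aorta with its SE for the 16 listed clock genes, above the dotted line, and 10 glucocorticoid-responsive genes, below it, in KO (circles) and, where listed, in WT (squares). Bmal1, Npas2, Clock and Cry2 lie below 0 in KO, and 5 clock genes lie above 0 in KO and below 0 in WT.

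Genes of mitochondrial energy production rose together. The respiratory chain passes electrons from complex I or II through complex III to complex IV, and ATP synthase uses the resulting proton gradient. Of 84 nuclear genes of these subunits 51 (60.7%, against 14.4% of all tested genes) were listed. All 51 were higher in aged KO, with a median of 0.33 and a range from 0.19 to 1.39. By complex, 20 of 37 genes of complex I, 3 of 4 of complex II, 8 of 9 of complex III, 12 of 16 of complex IV and 8 of 18 of ATP synthase were listed. None of 15 mitochondrially coded genes was listed. In WT ageing 1 gene of the 84 was listed, against 12.0% of all tested genes.

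Complex I members had small folds, with a median of 0.27 and none over 0.38. The authors' deposited table gave 0.35 (SE 0.09) for Ndufv1, which holds the flavin that takes up electrons from NADH, and 0.38 (SE 0.10) for the accessory subunit gene Ndufa10. In complex II the authors' deposited table gave 0.45 (SE 0.09) for the iron-sulphur subunit gene Sdhb, 0.26 (SE 0.07) for the flavoprotein gene Sdha and 0.26 (SE 0.12) for the membrane anchor gene Sdhd. Complex III had a median of 0.44. Cyc1, which codes for cytochrome c1, went from 1786 to 2526, or 0.50 (SE 0.10) in the authors' deposited table, Uqcrq was at 0.57 (SE 0.12), the Rieske protein gene Uqcrfs1 at 0.49 (SE 0.10) and Uqcrc2 at 0.42 (SE 0.09). In complex IV the authors' deposited table gave 0.53 (SE 0.12) for Cox5a, 0.46 (SE 0.10) for Cox5b, 0.46 (SE 0.11) for Cox6b1 and 0.22 (SE 0.09) for Cox4i1. Much larger and less precise were Cox8b at 1.39 (SE 0.53) and Cox7a1 at 1.18 (SE 0.47) in the authors' deposited table, isoforms of brown fat and striated muscle. Of ATP synthase the authors' deposited table gave 0.40 (SE 0.08) for the catalytic beta subunit gene Atp5f1b, 0.25 (SE 0.07) for Atp5f1a and 0.45 (SE 0.11) for Atp5po. The 5 listed of 45 assembly factors (11.1%, against 14.4% of all tested genes) were also higher, from 0.26 to 0.36.

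**Figure D3:**
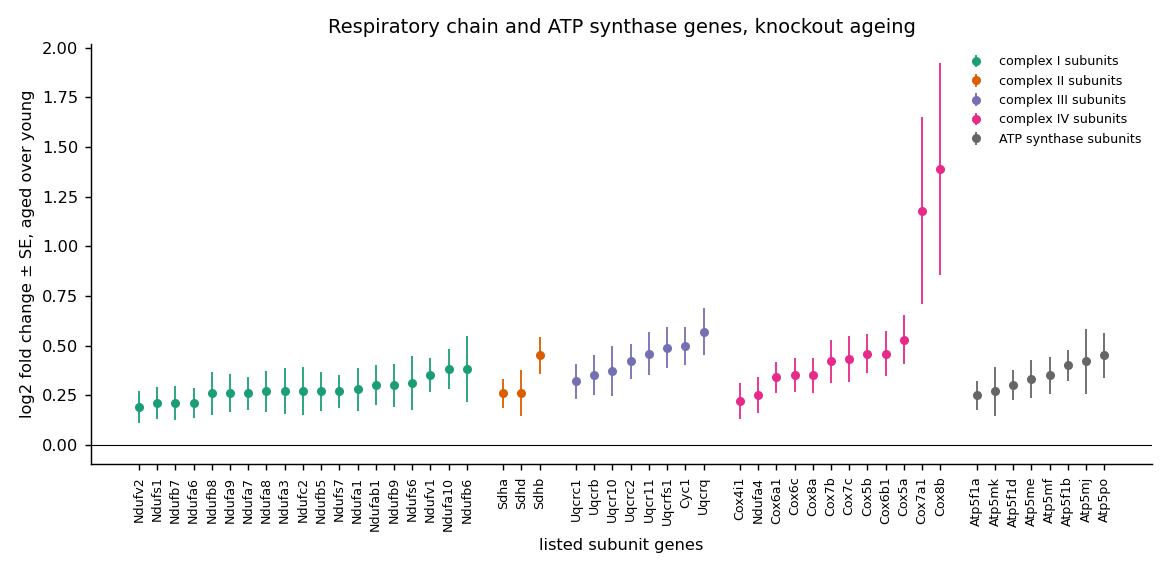
Log2 fold change of aged over young KO aorta with the authors' SE for 50 of the 51 listed subunit genes, ordered within each complex. All lie above 0, between 0.19 and 0.57 except Cox7a1 at 1.18 and Cox8b at 1.39, whose SEs are the widest.

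Pathways that feed the chain moved the same way. Of 27 citric acid cycle and pyruvate entry genes 16 (59.3%, against 14.4% of all tested genes) were listed, all higher, with a median of 0.33. Pdp2, the phosphatase that switches pyruvate dehydrogenase on, was at 0.57 (SE 0.07), Dlat, a pyruvate dehydrogenase subunit gene, at 0.43 (SE 0.09), Idh3a, of the NAD-dependent isocitrate dehydrogenase, at 0.60 (SE 0.11) and the succinyl-CoA ligase gene Sucla2 at 0.54 (SE 0.09), as the authors' deposited table gives them. Citrate synthase (Cs), the first enzyme of the cycle, was at 0.28 (SE 0.08) in the authors' deposited table. Of 27 fatty acid oxidation genes 21 (77.8%) were listed, 20 higher and 1 lower, with a median of 0.54. Acsl1, which activates long-chain fatty acids, went from 8194 to 12857, or 0.65 (SE 0.10) in the authors' deposited table. The transport genes Cpt1b (1.02, SE 0.29), Cpt2 (0.58, SE 0.11) and Slc25a20 (0.52, SE 0.12), and the dehydrogenase genes Acadl (0.69, SE 0.11), Acadvl (0.59, SE 0.10) and Acadm (0.55, SE 0.09) were higher in the authors' deposited table. Ppara, the nuclear receptor that drives this pathway, was at 0.85 (SE 0.16) in the authors' deposited table.

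Other parts of the mitochondrion were listed less densely. Protein import and inner membrane genes gave 10 of 47 (21.3%) and coenzyme Q, heme and iron-sulphur genes 6 of 32 (18.8%), all higher. Of 80 mitochondrial ribosome genes 3 (3.75%) were listed, also higher, against 14.4% of all tested genes. Among 42 carriers of the SLC25 family 7 were higher and 4 lower, a listed share of 26.2%. The uncoupling protein gene Ucp3 went from 105 to 360, or 1.78 (SE 0.18) in the authors' deposited table, and Ucp2 was at 0.74 (SE 0.14). Slc25a34 had the largest decrease of the family, from 3807 to 1852, or −1.04 (SE 0.11) in the authors' deposited table. Slc25a25, a calcium-regulated carrier of ATP, was lower at −0.37 (SE 0.13) in the authors' deposited table.

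Markers of brown adipocytes moved with these genes. Of 8 such markers 5 (62.5%, against 14.4% of all tested genes) were listed and all were higher. The summed group mean of these 5 went from 3455 to 9316. A rise of this sum was fixed by taking only called genes, all of them higher, and Cidea, Dio2 and Elovl3 are not in it. Ucp1, which uncouples respiration to make heat, went from 1875 to 5762, or 1.62 (SE 0.45) in the authors' deposited table. The potassium channel gene Kcnk3 was at 0.87 (SE 0.16) and the proton channel gene Otop1 at 1.05 (SE 0.60), beside Cox8b and Cox7a1 above, in the authors' deposited table. Cidea, Dio2 and Elovl3 were not listed. Of the wider list of brown fat and thermogenesis genes 12 of 23 (52.2%) were listed, 11 higher and 1 lower. Ppargc1a, a coactivator of mitochondrial biogenesis, was at 0.89 (SE 0.14), its partner Esrrg at 0.73 (SE 0.33) and Letmd1 at 0.40 (SE 0.09) in the authors' deposited table, while Prdm16, which specifies brown fat and is also expressed in arteries, was lower at −0.33 (SE 0.08). General adipocyte markers gave 1 of 12 listed (8.33%), Plin4 at 0.20 (SE 0.07) in the authors' deposited table. Without the 2 brown adipocyte markers among its members, the respiratory chain list had 49 listed genes of 82, all higher, with a median of 0.32. The part of brown adipocytes in these increases was not tested, and in whole aorta a change in the share of a cell type cannot be told apart from a change in RNA per cell.

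In promoters of the listed respiratory genes the NRF1 site GCATGCGC, searched on both strands, was found in 7 of 39, against 3.94% of all coding promoters and 7.16% of those of all higher genes.

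Of 30 lipid storage genes 9 (30%) were listed, 8 higher and 1 lower. Pnpla2, the triglyceride lipase, was at 0.54 (SE 0.10) and its inhibitor gene G0s2 at 1.08 (SE 0.17) in the authors' deposited table. The droplet protein gene Plin5 was at 0.79 (SE 0.19), Lpin1 at 0.44 (SE 0.11) and the triglyceride synthesis gene Dgat2 at 0.95 (SE 0.35) in the authors' deposited table. Genes of lipid synthesis went the other way in part. Srebf1, which drives fatty acid synthesis, was at −0.33 (SE 0.07) and the desaturase gene Scd2 at −0.40 (SE 0.11) in the authors' deposited table, whereas Acacb, whose product restrains fatty acid entry into mitochondria, was at 0.36 (SE 0.11). Of 27 sterol genes 5 (18.5%, against 14.4% of all tested genes) were listed, all lower. Stard4, a cholesterol carrier, went from 1039 to 519, or −1.0 (SE 0.16) in the authors' deposited table, with Insig1 at −0.33 (SE 0.12), Idi1 at −0.67 (SE 0.31) and the cholesterol exporter gene Abca1 at −0.25 (SE 0.07).

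Glucose genes gave 13 listed of 33 (39.4%, against 14.4% of all tested genes), 11 higher and 2 lower. Hexokinase 2 (Hk2) went from 2985 to 4652, or 0.64 (SE 0.09) in the authors' deposited table, against 0.21 (SE 0.09) in WT, with an adjusted p of 0.00425 for the difference. The insulin-regulated transporter gene Slc2a4 was at 0.55 (SE 0.11), Pfkl at 0.39 (SE 0.08), the glycogen branching gene Gbe1 at 0.53 (SE 0.09) and Gys1 at 0.33 (SE 0.10) in the authors' deposited table. Phkg1, of phosphorylase kinase, was lower at −0.61 (SE 0.12) in the authors' deposited table. Branched-chain amino acid breakdown genes were higher for all 6 listed of 22 (27.3%), from 0.21 to 0.32. Targets of ATF4, the factor of the amino acid and integrated stress response, were higher for 10 of 11 listed of 30 (36.7%). These included Cebpb (0.73, SE 0.15), Ddit3 (0.44, SE 0.12), Mthfd2 (0.59, SE 0.23) and Nupr1 (0.29, SE 0.09), while the amino acid transporter gene Slc7a5 was at −0.32 (SE 0.15) in the authors' deposited table.

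Heat shock genes were higher in aged KO. Heat shock factor 1 binds repeats of GAA and its reverse TTC and drives chaperone genes. Of 48 genes 18 (37.5%, against 14.4% of all tested genes) were listed, all higher. Their median was 0.34 and their range from 0.15 to 0.58. The element searched was GAA, any 2 bases, TTC, any 2 bases and GAA, on both strands, and it is in capitals in the promoters of 3 chaperone genes that rose (RefSeq, build GRCm38.p6, 250 bases before to 50 after the gene start). The Hsph1 window is chr5:149636266-149636565 on the minus strand with 1 match, which starts 15 bases after the gene start. The Chordc1 window is chr9:18292017-18292316 on the plus strand with 3 overlapping matches. The Hspd1 window is chr1:55087883-55088182 on the minus strand with 2 overlapping matches. Hsph1 and Hspd1 have 2 promoters each in the RefSeq table, of which 1 is shown.
Hsph1: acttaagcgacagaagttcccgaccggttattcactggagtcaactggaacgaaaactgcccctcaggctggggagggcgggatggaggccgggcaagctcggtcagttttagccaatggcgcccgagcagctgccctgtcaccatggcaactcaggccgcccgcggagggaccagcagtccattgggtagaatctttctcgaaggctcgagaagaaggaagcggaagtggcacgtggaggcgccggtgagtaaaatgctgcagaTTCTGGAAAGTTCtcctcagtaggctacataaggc
Chordc1: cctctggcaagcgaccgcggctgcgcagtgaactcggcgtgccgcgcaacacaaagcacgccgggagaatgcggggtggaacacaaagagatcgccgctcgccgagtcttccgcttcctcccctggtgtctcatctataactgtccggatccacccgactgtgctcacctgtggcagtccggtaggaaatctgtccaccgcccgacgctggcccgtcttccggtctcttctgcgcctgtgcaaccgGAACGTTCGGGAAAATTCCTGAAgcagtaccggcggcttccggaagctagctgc
Hspd1: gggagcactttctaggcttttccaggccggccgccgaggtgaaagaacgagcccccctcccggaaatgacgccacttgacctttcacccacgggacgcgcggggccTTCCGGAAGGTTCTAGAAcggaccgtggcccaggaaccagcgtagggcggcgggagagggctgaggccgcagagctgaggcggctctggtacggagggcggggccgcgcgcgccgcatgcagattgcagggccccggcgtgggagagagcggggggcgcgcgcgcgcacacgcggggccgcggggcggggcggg
The element was found in 4 of 13 listed heat shock genes with a promoter in the table, the fourth being Hspe1, which lies next to Hspd1 in the opposite orientation. Whether the same stretch was counted for both neighbours was not tested. The element was found in 0.595% of all coding promoters, in 1.39% of those of higher genes and in 0.149% of those of lower genes.

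The genes listed came from several chaperone families. Hspa8, the constitutive HSP70, went from 18564 to 23662, or 0.35 (SE 0.10) in the authors' deposited table, and its exchange factor genes Hsph1 and Hspa4l were at 0.57 (SE 0.20) and 0.51 (SE 0.07). The HSP90 genes Hsp90aa1 (0.34, SE 0.08) and Hsp90ab1 (0.15, SE 0.06) and the co-chaperone genes Chordc1 (0.58, SE 0.08) and Stip1 (0.38, SE 0.08) were higher in the authors' deposited table. The mitochondrial chaperonin genes Hspd1 (0.47, SE 0.09) and Hspe1 (0.44, SE 0.11) and the mitochondrial HSP70 gene Hspa9 (0.23, SE 0.07) rose too in the authors' deposited table. Of the small heat shock proteins the authors' deposited table gave 0.43 (SE 0.10) for Hspb1, 0.38 (SE 0.06) for Hspb7 and 0.24 (SE 0.08) for Cryab. In WT ageing 12 of these 48 genes were listed, all lower, against 12.0% of all tested genes listed and 6.76% lower. The 4 genes listed in both had opposite signs. The WT values in the authors' deposited table were −0.28 (SE 0.08) for Hspb7, −0.32 (SE 0.13) for Bag3, −0.38 (SE 0.15) for Dnaja4 and −0.16 (SE 0.06) for Hsp90ab1. In KO Bag3 was at 0.22 (SE 0.09) and Dnaja4 at 0.30 (SE 0.15) in the authors' deposited table. The adjusted p of the difference was 9.22e-09 for Hspb7, 0.00295 for Bag3, 0.00492 for Dnaja4 and 0.00148 for Hsp90ab1.

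In the endoplasmic reticulum 4 of 33 unfolded protein response genes (12.1%, against 14.4% of all tested genes) were listed, all higher. Herpud1, of protein degradation at the reticulum, was at 0.35 (SE 0.07) in KO and −0.29 (SE 0.09) in WT in the authors' deposited tables, with an adjusted p of 1.01e-06 for the difference, and Xbp1, a central factor of that response, was at 0.25 (SE 0.07) in KO. Antioxidant and detoxification genes gave 13 listed of 69 (18.8%), 12 higher and 1 lower. Por, the electron donor of cytochrome P450 enzymes, was at 0.64 (SE 0.07), the thioredoxin inhibitor gene Txnip at 0.36 (SE 0.08) and the secreted peroxidase gene Gpx3 at 0.71 (SE 0.29) in the authors' deposited table, with Mt1 and Mt2 above. Fmo1, a flavin monooxygenase gene, was at 0.75 (SE 0.10) in KO and −0.33 (SE 0.14) in WT in the authors' deposited tables, with an adjusted p of 5.04e-08 for the difference. The aldehyde oxidase gene Aox1 was lower at −0.55 (SE 0.08) in the authors' deposited table.

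Genes of the early transcriptional response were mostly lower in aged KO. These genes are induced within minutes by growth factors, stretch or stress, many through cyclic AMP response elements (CRE, TGACGTCA) and serum response elements. On 3 lists together 35 of 80 genes (43.8%, against 14.4% of all tested genes) were listed, 6 higher and 29 lower. Their median was −0.47. A CRE was found on either strand in 5 of 27 listed members with a promoter in the table, against 2.54% of all coding promoters. Of these 5 genes Dusp1, Btg2 and Plk2 were lower and Maff and Errfi1 higher. The Btg2 window shown has 1 CRE, in capitals, which starts 166 bases before the gene start (RefSeq, build GRCm38.p6, chr1:134079106-134079405, minus strand).
Btg2: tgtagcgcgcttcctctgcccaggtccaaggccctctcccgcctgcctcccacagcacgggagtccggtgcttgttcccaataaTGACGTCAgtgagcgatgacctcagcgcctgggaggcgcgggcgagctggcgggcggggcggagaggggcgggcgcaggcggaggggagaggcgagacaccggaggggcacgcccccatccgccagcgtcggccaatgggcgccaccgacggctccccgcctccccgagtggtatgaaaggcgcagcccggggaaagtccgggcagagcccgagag

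Of 12 AP-1 and ATF3 genes 5 (41.7%, against 14.4% of all tested genes) were listed, 4 of them lower. Maff was higher at 0.35 (SE 0.13) in the authors' deposited table. Fos went from 23106 to 8057, or −1.52 (SE 0.46) in the authors' deposited table, with Fosb at −1.27 (SE 0.54). Jun went from 8647 to 4264, or −1.02 (SE 0.10) in the authors' deposited table. Atf3, a stress-induced repressor, went from 6820 to 1958, or −1.80 (SE 0.18) in the authors' deposited table. The SE of Fos and Fosb was larger than that of Jun and Atf3, so the size of their change is less certain. The EGR genes were lower too, with −0.71 (SE 0.35) for Egr1, −1.38 (SE 0.21) for Egr2 and −1.32 (SE 0.15) for Egr3 in the authors' deposited table. For effectors the authors' deposited table gave −1.32 (SE 0.24) for Ccn1, a matricellular protein, −1.39 (SE 0.24) for Ptgs2, the inducible cyclooxygenase, −1.42 (SE 0.36) for Rgs1 and −1.14 (SE 0.15) for Plk2. Btg2 was at −0.78 (SE 0.33), Nfkbiz at −0.78 (SE 0.10), Socs3 at −0.78 (SE 0.18) and Tnfaip3 at −0.44 (SE 0.15), the latter pair being feedback inhibitors of cytokine signalling, in the authors' deposited table.

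Feedback inhibitors of receptor tyrosine kinases were higher. Spry4 was at 0.86 (SE 0.12) and Spry2 at 0.45 (SE 0.12) in the authors' deposited table, as were Errfi1 above and Hbegf, a ligand of the EGF receptor, at 0.44 (SE 0.13). Maff (0.35, SE 0.13) and Gadd45g (0.62, SE 0.14) completed the higher members in the authors' deposited table. In WT ageing 18 of the 80 genes on these lists were listed, 3 higher and 15 lower, against 12.0% of all tested genes. Jun stood at −1.02 (SE 0.33) and Atf3 at −2.20 (SE 0.76) in WT in the authors' deposited table, with adjusted p of 1 and 0.791 for the difference from KO. Sik1 was at −0.41 (SE 0.09) in KO and −0.99 (SE 0.12) in WT, and Dusp10 at −0.58 (SE 0.10) and −1.07 (SE 0.12), in the authors' deposited tables. Their decreases were larger in WT, with adjusted p of 0.000587 and 0.00777 for the difference.

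Genes of the extracellular matrix were mostly lower in aged KO, by small folds. All 6 listed of 25 elastic fibre genes (24.0%, against 14.4% of all tested genes) were lower. Elastin (Eln), the core protein of the elastic laminae, went from 156288 to 126945, or −0.30 (SE 0.08) in the authors' deposited table. Fibrillin 1 (Fbn1) was at −0.32 (SE 0.09), Ltbp2 at −0.23 (SE 0.08), Ltbp3 at −0.15 (SE 0.05) and Mfap2 at −0.34 (SE 0.20) in the authors' deposited table, with Fbln5 above. Of 43 collagen genes 9 (20.9%) were listed, 8 lower and 1 higher. The fibrillar genes Col1a1 (−0.35, SE 0.16), Col1a2 (−0.23, SE 0.08), Col3a1 (−0.31, SE 0.10) and Col5a1 (−0.20, SE 0.06) were lower and Col11a2 was higher at 0.54 (SE 0.13) in the authors' deposited table. Of 28 collagen processing genes 5 (17.9%) were listed, 4 of them higher. The prolyl hydroxylase genes P4ha1 (0.52, SE 0.10) and P4ha2 (0.45, SE 0.09) and the lysyl hydroxylase gene Plod1 (0.25, SE 0.08) were higher in the authors' deposited table, while Pcolce2, an enhancer of procollagen cleavage, was lower at −0.31 (SE 0.12).

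Proteoglycan and matricellular genes gave 11 listed of 56 (19.6%, against 14.4% of all tested genes), 2 higher and 9 lower. Comp, which binds collagens in stiff matrix, went from 2582 to 1483, or −0.80 (SE 0.11) in the authors' deposited table, with Smoc1 at −0.54 (SE 0.07), Ccn5 at −0.54 (SE 0.10), Ccn4 at −0.60 (SE 0.13), Tnxb at −0.23 (SE 0.06) and biglycan (Bgn) at −0.19 (SE 0.07). Proteases and their inhibitors moved both ways, 5 higher and 10 lower of 58, a listed share of 25.9%. The authors' deposited table gave −0.64 (SE 0.07) for Adamts6, −0.76 (SE 0.09) for Adam19, −0.52 (SE 0.09) for Adamts12 and −0.31 (SE 0.10) for the gelatinase gene Mmp2, against 0.61 (SE 0.10) for Adamts9 and 0.56 (SE 0.11) for the inhibitor gene Timp4. Calcification genes gave 1 listed of 31 (3.23%), Sox9, a cartilage transcription factor, at −0.53 (SE 0.22) in the authors' deposited table.

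In WT ageing, which listed 12.0% of all tested genes, each of these matrix lists had more listed genes than in KO. Of 25 elastic fibre genes 8 were listed, 7 lower, and of 43 collagen genes 20, 14 lower. Proteoglycan and matricellular genes gave 22 of 56, 15 lower, and proteases and inhibitors 19 of 58, 12 lower. Collagen processing genes differed in direction, with 7 of 8 listed lower in WT and 4 of 5 listed higher in KO. Among the genes in both, Col6a1 was at −0.20 (SE 0.06) in KO and −0.56 (SE 0.09) in WT, and Pcolce2 at −1.01 (SE 0.09) in WT, in the authors' deposited tables, with adjusted p of 0.00329 and 4.94e-05 for the difference. Col1a1 (−0.95, SE 0.34) and Col1a2 (−0.74, SE 0.21) also had lower values in WT than in KO in the authors' deposited tables, but their differences had adjusted p of 0.269 and 0.0807.

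Contractile genes moved both ways. Of 42 smooth muscle contractile genes 12 (28.6%, against 14.4% of all tested genes) were listed, 6 higher and 6 lower. Myocd, the coactivator that sets the smooth muscle programme, went from 11256 to 16826, or 0.58 (SE 0.09) in the authors' deposited table. The kinase genes Rock1 (0.38, SE 0.07) and Rock2 (0.16, SE 0.05), which promote contraction, were higher, and the actin-binding genes Lmod1 (−0.32, SE 0.09) and Synpo2 (−0.21, SE 0.06) lower, in the authors' deposited table. Acta2, Myh11, Tagln and Cnn1, the standard markers of the contractile state, were not listed. Enah, an actin regulator, and Myom1, a sarcomere protein, were higher, at 0.63 (SE 0.08) and 0.28 (SE 0.08) in the authors' deposited table.

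Calcium and potassium handling genes were listed at shares of 10.0% to 17.0%, around the 14.4% of all tested genes. Of 30 calcium exchangers and pumps 3 were listed: the plasma membrane pumps Atp2b1 (0.25, SE 0.07) and Atp2b4 (−0.14, SE 0.05) and the mitochondrial exchanger gene Letm1 (0.27, SE 0.08) in the authors' deposited table. No other member of the Slc24 family was listed. Of 53 entry and release channel genes 9 were listed, 5 higher and 4 lower. They included Ryr2, of the reticulum release channel (0.31, SE 0.10), Jph1, which joins reticulum and cell membrane (0.54, SE 0.13), and the stretch channel gene Piezo1 (0.23, SE 0.09) in the authors' deposited table. Of 60 potassium channel genes 10 were listed, 4 higher and 6 lower, with Kcna5 at 0.75 (SE 0.29) and Kcnn4 at 0.92 (SE 0.38), against Kcna2 at −0.56 (SE 0.15) and the ATP-sensitive channel gene Kcnj8 at −0.38 (SE 0.11) in the authors' deposited table.

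Receptors and ligands of vasoactive signals gave 7 higher and 4 lower of 69, a listed share of 15.9%. The serotonin receptor gene Htr1b (0.78, SE 0.09) and the neuropeptide Y receptor gene Npy1r (0.60, SE 0.08) were higher, and the serotonin receptor gene Htr2a (−0.62, SE 0.11) and the adrenoceptor gene Adra1d (−0.71, SE 0.11) lower, in the authors' deposited table. Prostacyclin synthase (Ptgis) was at 0.30 (SE 0.06) and the prostacyclin receptor gene Ptgir at −0.54 (SE 0.15) in the authors' deposited table. In the nitric oxide pathway the synthase gene Nos3 was at 0.50 (SE 0.13) and the cyclase subunit gene Gucy1a1, which answers to nitric oxide, at −0.38 (SE 0.06) in the authors' deposited table. Caveolin 1 (Cav1) was at −0.32 (SE 0.06) and the phosphodiesterase gene Pde3b at 0.71 (SE 0.12) in the authors' deposited table.

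The largest decrease of the table was that of the apelin receptor gene Aplnr, from 178 to 30.6, or −2.54 (SE 0.31) in the authors' deposited table. Angiogenic ligands and receptors gave 12 listed of 41 (29.3%), 4 higher and 8 lower. Angpt2, which loosens vessel walls, was at −0.55 (SE 0.09), the pericyte and smooth muscle receptor gene Pdgfrb at −0.48 (SE 0.06), Hgf at −0.90 (SE 0.21) and the tip cell gene Esm1 at −1.06 (SE 0.33) in the authors' deposited table, whereas S1pr1, a receptor for sphingosine phosphate, was at 0.61 (SE 0.12). All 4 listed of 23 Notch genes were lower, from the ligand gene Jag1 (−0.50, SE 0.08) and the DNA-binding partner Rbpj (−0.41, SE 0.07) to the targets Heyl (−0.59, SE 0.09) and Hey2 (−0.22, SE 0.07) in the authors' deposited table. Of 62 Wnt genes 8 were lower and 2 higher, with Wnt2 at −1.42 (SE 0.42), Wnt5a at −0.46 (SE 0.13) and its receptor gene Ror1 at −0.40 (SE 0.11) in the authors' deposited table. Guidance genes of the semaphorin, ephrin, Slit and netrin families gave 8 lower and 1 higher of 65, including Neo1 (−0.43, SE 0.08), Slit3 (−0.23, SE 0.06) and Unc5b (−0.26, SE 0.12) in the authors' deposited table. The listed shares of the Notch (17.4%), Wnt (16.1%) and guidance (13.8%) lists were close to the 14.4% of all tested genes, so their counts of listed genes do not stand out.

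BMP and TGF-beta genes gave 11 listed of 56 (19.6%), 4 higher and 7 lower. Smad9, a BMP signal transducer, was at −0.67 (SE 0.10), Smad3, which carries the TGF-beta signal, at −0.34 (SE 0.08) and the inhibitor gene Smad6 at −0.24 (SE 0.11) in the authors' deposited table. The receptor genes Tgfbr1 (0.28, SE 0.07) and Bmpr1b (0.51, SE 0.08) were higher in the authors' deposited table. Bmpr1b stood at −0.44 (SE 0.13) in WT in the authors' deposited table, with an adjusted p of 1.27e-08 for the difference.

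**Figure D4:**
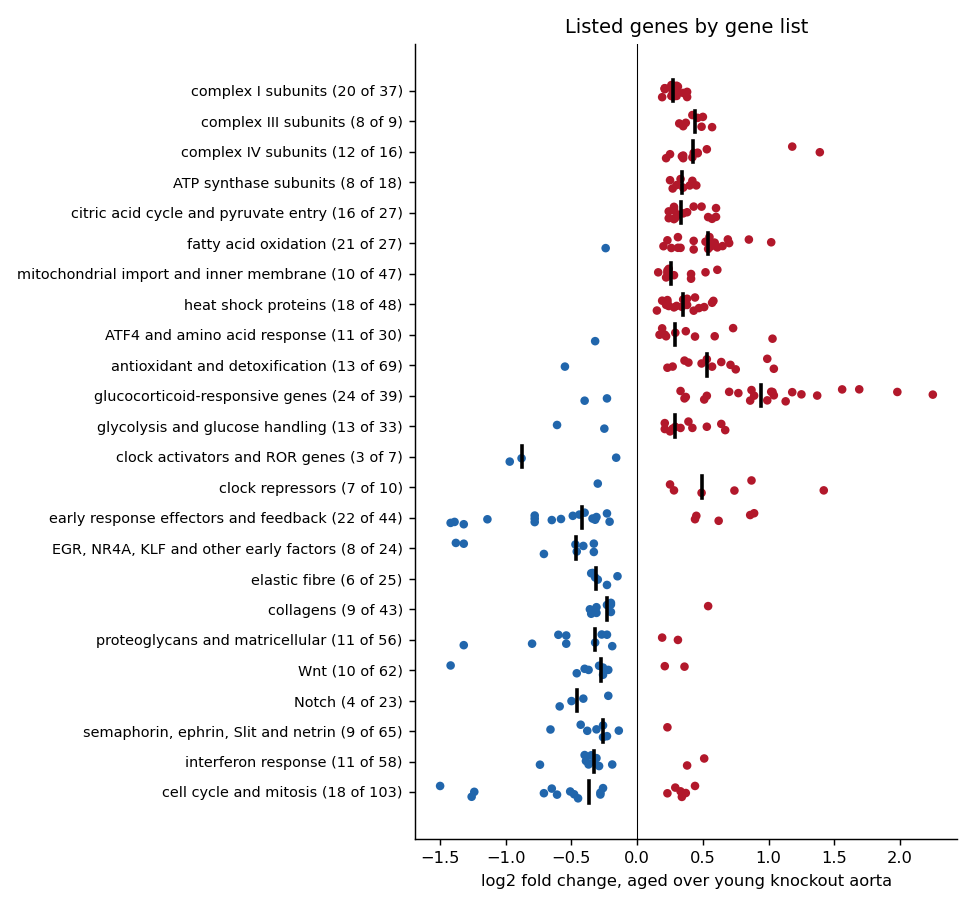
Log2 fold changes of aged over young KO aorta for the listed genes of 24 gene lists, 1 point per gene, red above and blue below 0, with the median as a black bar and the numbers of listed and of all genes beside each name. Mitochondrial, heat shock and glucocorticoid lists lie to the right, and clock activator, early response, matrix and Notch lists to the left.

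Cell cycle genes moved both ways. Of 103 genes 18 were listed, 6 higher and 12 lower, and this share of 17.5% was close to the 14.4% of all tested genes. Mki67 went from 345 to 146, or −1.24 (SE 0.21) in the authors' deposited table, the topoisomerase gene Top2a was at −1.26 (SE 0.25), the kinetochore gene Cenpf at −1.5 (SE 0.31) and Prc1, of the mitotic spindle, at −0.71 (SE 0.22). The G1 kinase gene Cdk6 (0.44, SE 0.08) and the cyclin gene Ccnd3 (0.29, SE 0.07) were higher and Ccnd2 was lower at −0.28 (SE 0.06) in the authors' deposited table. Chromatin modifier genes gave 11 higher and 7 lower of 85, a listed share of 21.2%. Tet1, which oxidises methylcytosine, went from 1787 to 938, or −0.93 (SE 0.11) in the authors' deposited table, with the remodeller gene Chd7 at 0.84 (SE 0.16). The senescence and p53 list gave 5 listed of 33 (15.2%), 3 higher and 2 lower.

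Immune lists differed in how many genes were listed. None of 24 antigen presentation genes was listed, and 2 of 50 cytokine and chemokine genes (4%) were. The interferon response gave 11 of 58 (19.0%, against 14.4% of all tested genes), 2 higher and 9 lower. The GTPase gene Iigp1 was at −0.74 (SE 0.19), the RNA-activated kinase gene Eif2ak2 at −0.31 (SE 0.10), the RNA sensor gene Rigi at −0.19 (SE 0.08) and Ifi203 at −0.37 (SE 0.12) in the authors' deposited table, while Ifi27 was higher at 0.38 (SE 0.07). In WT ageing 4 of these 58 genes were listed, all higher, against 12.0% of all tested genes, so this count does not stand out. Ifi203 stood at 0.55 (SE 0.15) in WT in the authors' deposited table, with an adjusted p of 3.95e-05 for the difference.

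Markers of other cell types were listed for the main cells of the wall and for few others. For smooth muscle 3 of 10 markers (30%) were listed, 1 higher and 2 lower. For endothelium 2 of 14 (14.3%, against 14.4% of all tested genes) were, both lower. They were Cldn5 (−0.67, SE 0.23) of tight junctions and Egfl7 (−0.60, SE 0.11) in the authors' deposited table. On a wider endothelial list 7 of 32 genes (21.9%) were listed, 3 higher, among them Nos3, and 4 lower. For fibroblasts Col1a1 and Col1a2 of 8 markers (25%) were listed, both lower. For macrophages 1 of 9 (11.1%) was listed, the scavenger receptor gene Cd163 at 0.43 (SE 0.28) in the authors' deposited table. None of the markers of lymphocytes (10), Schwann cells and nerve (7), striated muscle (13), lymphatic endothelium (7), mesothelium (4) and red blood cells (5) was listed. On a wider striated muscle list 7 of 55 genes (12.7%) were listed, 6 higher and 1 lower. A wider Schwann and nerve list gave 2 of 19 (10.5%), 1 higher and 1 lower. The part of the endothelial and fibroblast markers in the changes of vascular and matrix genes was not tested.

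By RefSeq class 1943 listed genes were protein-coding, 1062 higher and 881 lower, and 94 were long noncoding RNA genes, 34 higher and 60 lower. The long noncoding RNA Neat1 went from 96119 to 77534, or −0.31 (SE 0.08) in the authors' deposited table. Rows of 4 microRNA genes were listed, all lower. Mir145a was at −0.86 (SE 0.11) and Mir143 at −0.81 (SE 0.38), both known from smooth muscle, and Mir23a at −0.71 (SE 0.21) and Mir27a at −1.23 (SE 0.32) in the authors' deposited table. These rows count reads at the gene in a library of total RNA and do not measure the mature microRNA. Mir143 stood at 1.14 (SE 0.26) in WT in the authors' deposited table, with an adjusted p of 0.000210 for the difference. Of 22 pseudogenes 9 were higher and 13 lower; their reads, and those of the retrogene Rps27rt, can be shared with their parent genes, so these values are uncertain. Rps27rt was at −1.36 (SE 0.44) in KO and 1.01 (SE 0.40) in WT in the authors' deposited tables, with an adjusted p of 0.000587 for the difference.

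The last question was how ageing in KO compared with ageing in WT, 2 comparisons that share no library. WT ageing listed 1728 of 14374 tested genes (12.0%), 756 higher (5.26%) and 972 lower (6.76%). Both ageing comparisons listed 438 genes, 21.0% of the KO genes and 25.3% of the WT genes. Of these, 361 had the same direction (82.4%), 148 higher and 213 lower in both, and 77 had opposite directions, 38 higher in KO and lower in WT and 39 the reverse. The remaining 1645 KO genes were not listed in WT; whether their age effects differ was not tested, since both deposited folds are needed.

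Shared changes included the membrane protein gene Ptchd4 (1.55 (SE 0.23) in KO and 2.14 (SE 0.30) in WT), Atf3, Jun, Tet1 and the magnesium transporter family gene Nipal4 (−1.23 (SE 0.42) and −1.34 (SE 0.28)), with folds from the authors' deposited tables. Tet1 was at −1.07 (SE 0.14) in WT in the authors' deposited table. Their adjusted p for the difference ran from 0.280 for Ptchd4 to 1 for Jun. Of the 131 genes whose age effects differed, 76 had opposite directions and 55 the same. Since only genes called in both comparisons were tested, the passing of 76 of the 77 opposite genes was largely set in advance. Among the 55 the absolute fold was larger in WT for 42 and in KO for 13. The effect in KO was above that in WT for 78 genes and below it for 53.

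Opposite genes with the smallest p were of several kinds. Fibin, a secreted protein gene, was at 0.49 (SE 0.09) in KO and −0.49 (SE 0.10) in WT, and the calponin gene Cnn3 at 0.26 (SE 0.09) and −0.71 (SE 0.11), in the authors' deposited tables. The adjusted p of the difference was 1.46e-10 for Fibin and 2.40e-09 for Cnn3. Arhgap26, a regulator of RhoA, was at −0.61 (SE 0.14) in KO and 0.81 (SE 0.15) in WT, Cd200, an inhibitory immune ligand, at −0.24 (SE 0.05) and 0.37 (SE 0.07), and the cadherin gene Cdh11 at −0.58 (SE 0.09) and 0.36 (SE 0.14), in the authors' deposited tables. The adjusted p of the difference was 1.01e-09 for Arhgap26, 1.01e-09 for Cd200 and 3.29e-07 for Cdh11. Fgf1, a fibroblast growth factor, was at −0.30 (SE 0.09) in KO and 0.55 (SE 0.11) in WT, and the interferon lambda receptor gene Ifnlr1 at −0.91 (SE 0.23) and 0.89 (SE 0.22), in the authors' deposited tables. The adjusted p of the difference was 7.55e-08 for Fgf1 and 3.23e-07 for Ifnlr1. Both Cntn1, a neuronal adhesion molecule gene, and Sphkap rose less in KO, with Cntn1 at 1.28 (SE 0.55) against 3.52 (SE 0.25) and Sphkap at 1.25 (SE 0.41) against 2.60 (SE 0.16) in the authors' deposited tables. The adjusted p of the difference was 0.00142 for Cntn1 and 0.00941 for Sphkap; the latter call was lost when the folds were rescaled.

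**Figure D5:**
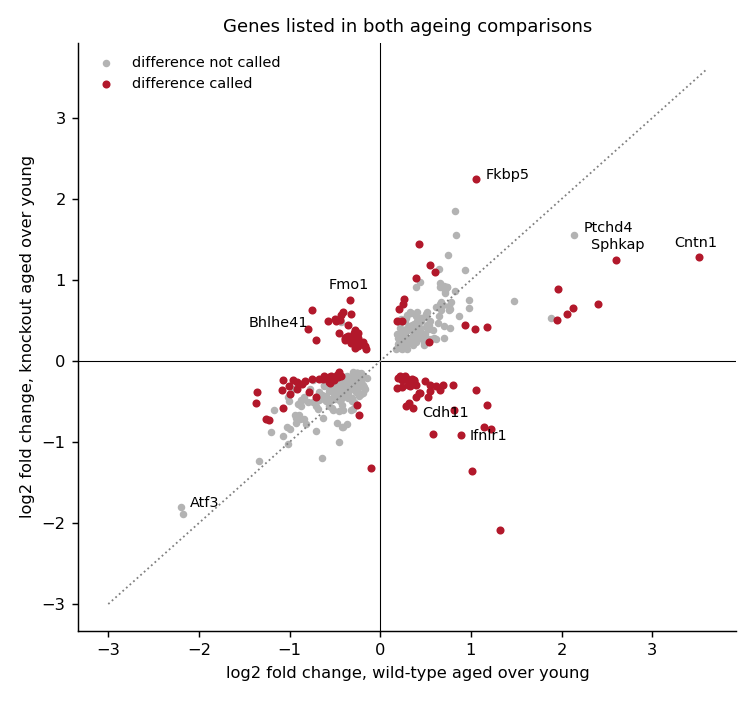
Log2 fold change of aged over young in KO (vertical) against WT (horizontal) for the 438 genes listed in both comparisons, with a dotted line of equal effects. Red points are the 131 genes whose age effects differed, among them 76 of the 77 in the upper left and lower right quadrants.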

How the data were processed

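RNA of 20 aortic libraries was sequenced. Tools named in the submitters' processing notes are DESeq2 1.42.1, featureCounts from Subread 2.0.8, STAR 2.7.11b and MultiQC 1.25.1, with GRCm39 as genome; no source used here gives their settings. Tables the authors deposited hold, per the file headers, a p-value raw and adjusted, a log2 fold change and its SE, and a mean normalized count, a signal over both groups. The deposited folds are shrunken: fold over SE had a median of 0.865 times the z that fits the deposited p. Depth is unknown. Labels do not say whether pools share litters, so p-values measure the spread between these pools.

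Adjusted over raw p gave how many genes were tested, and the last row had the rank 2083, so no called gene is missing. Sign was read from the values, by the spread of the difference in young KO group means between the tables that share this group. With positive taken as aged, this difference had a median absolute deviation about its median of 0.0353 in log2 units, and otherwise 0.115 or more. KO and WT ageing were compared by a z test on deposited folds and SEs with Benjamini-Hochberg adjustment, checked on simulated folds without shrinkage. The simulated differences were larger than most of those called, and the simulated folds did not have to be called in both comparisons. The check therefore does not cover small differences, shrunken folds or that selection.

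The 78 gene lists (2640 genes), markers and comparisons were chosen with earlier results of these data known. The text draws on the 15 largest changes per direction (mean of at least 50), the 15 smallest adjusted p, the 6 largest changes of mean count per direction, 6 genes per list with the smallest adjusted p, all listed clock, glucocorticoid, calcium, flanking and marker genes, 10 genes per side of the KO and WT difference and the 3 rows at the threshold; others were chosen after their values were seen, and a few genes counted in the lists are not reported here by name. RefSeq matched 2063 of 2083 symbols and gave 1535 promoters. Python 3.11.15, pandas 2.3.3, NumPy 2.4.6, SciPy 1.17.1 and matplotlib 3.10.9 were used.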

Additional observations from a re-analysis of the deposited data

Results flagged for a closer look

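The genes below are set apart because their age effect differed between KO and WT aorta by the test of the difference (adjusted p under 0.05 over 438 genes). For genes of opposite direction this was nearly fixed by their being called in both comparisons. Values are the log2 fold change with age in KO minus that in WT, from the authors' deposited tables, and no explanation was tested. Genes that rose in KO and fell in WT lie above 0. Fibin stood at 0.98, the calponin gene Cnn3 at 0.97, Kctd16, of GABA-B receptor complexes, at 1.20, Cys1, a cilium protein gene, at 1.02, Bmpr1b at 0.95 and Fmo1 at 1.08. Clock genes in this group were Bhlhe41 at 1.07, Noct at 1.38, Nr1d2 at 0.62, Tef at 0.61 and Usp2 at 0.51. Protein folding genes in it were Hspb7 at 0.66, Dnaja4 at 0.68, Bag3 at 0.54, Hsp90ab1 at 0.31 and Herpud1 at 0.64.

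Genes that fell in KO and rose in WT lie below 0. Ifnlr1 stood at −1.80, Arhgap26 and the receptor gene Gprc5c at −1.42 and −1.42, the activin subunit gene Inhbb at −1.10, the BMP antagonist gene Chrdl1 at −1.02 and Fgf1 at −0.85. The zinc finger genes Zfp386 and Zfp810 stood at −0.99 and −0.69, Cdh11 at −0.94, the stress gene Ndrg1 at −0.92, Ifi203 at −0.92 and Cd200 at −0.61. Prdm16 stood at −0.51, the sodium-activated potassium channel gene Kcnt2 at −0.62 and the aggrecan-cleaving protease gene Adamts5 at −0.40. Mir143 at −1.95 and the retrogene Rps27rt at −2.37 belong here as well, with the doubts on shared reads given above.

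Genes that rose in both rose more in KO for Fkbp5 (1.19), Acss1 (1.02), Klf15 (0.63), Nfkbia (0.63), Map3k6 (0.50), Pde3b (0.46) and Hk2 (0.43). The calls of Fkbp5 and Map3k6 were lost after the folds were rescaled to the deposited p, with adjusted p of 0.174 and 0.0539, and those of Fkbp5 and Pde3b at an adjusted p under 0.01. They rose less in KO for Cntn1 (−2.24), Nkain2 (−1.70), the neural adhesion gene Ncam2 (−1.48) and Sphkap (−1.35), whose call was lost after rescaling with an adjusted p of 0.0661. Genes that fell in both fell less in KO for Smad6 (0.83), the noncoding RNA gene Meg3 (0.72), Pcolce2 (0.70), the netrin receptor gene Unc5b (0.66), Sik1 (0.58), Dusp10 (0.49), Col6a1 (0.36) and the calcium pump gene Atp2b4 (0.31). Ccn1 fell more in KO (−1.22); its deposited fold in WT is strongly shrunken, at −0.10 (SE 0.20) in the authors' deposited table.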

How the results depend on the processing

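No paired analysis was possible because the deposited tables hold 1 fold change per gene and no value per library; for the same reason leaving out single pools was not possible. A stricter adjusted p of 0.01 left 1221 listed genes and one of 0.001 left 696; a minimum of 0.5 on the absolute log2 fold change left 532 and one of 1 left 99, in each case because fewer genes pass. A minimum mean count of 50 left 2055. With an adjusted p under 0.01 required in KO and in WT ageing, 169 genes had the same direction and 28 the opposite one. The majority direction of the 63 gene lists with at least 3 listed genes was the same under the adjusted p of 0.01 and under the minimum mean of 50. The number of genes whose age effects differed between KO and WT was 122 with folds rescaled to the deposited p, 115 over the 388 genes with at least 0.7 of the implied z, and 103 at an adjusted p under 0.01, against 131. Of the named differences 50 of 53 kept their call after rescaling; those of Map3k6 (0.39), Sphkap (−1.03) and Fkbp5 (0.75) did not, and the cause was not tested. At an adjusted p under 0.01 those of Fkbp5 (1.19) and Pde3b (0.46) were lost. None was reversed.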

Other observations

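Sets below were picked after their values had been seen, so their counts are a description only. Of all tested genes 14.4% were listed, and 6.68% were lower. Hedgehog signalling, in which the Patched receptor holds back the pathway and GLI factors carry it to the nucleus, had 7 listed genes of 23, all lower in aged KO. The authors' deposited table gave −0.62 (SE 0.08) for Ptch1, the receptor gene that is also a target of the pathway, −0.41 (SE 0.08) for Gli1 and −0.51 (SE 0.13) for Gli2. Cdon, a co-receptor gene, was at −0.48 (SE 0.08), Hhat, which attaches palmitate to the ligand, at −0.56 (SE 0.20) and Disp1, which releases it, at −0.35 (SE 0.12) in the authors' deposited table. In WT ageing Ptch1 (−0.46, SE 0.08), Gli1 (−0.48, SE 0.09), Gli2 (−0.29, SE 0.11) and Cdon (−0.68, SE 0.08) were lower too in the authors' deposited table, with adjusted p for the difference from 0.189 for Cdon to 0.762 for Gli1. Ihh, Hhip and Scube3 of this set were listed in WT ageing and not in KO ageing.

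Linker histone genes, whose products close chromatin between nucleosomes, had 4 listed of 7, all lower. The authors' deposited table gave −0.46 (SE 0.08) for H1f2, −0.44 (SE 0.08) for H1f0, −0.41 (SE 0.09) for H1f4 and −0.44 (SE 0.27) for H1f3. Their close similarity in sequence makes the split of reads among them uncertain.

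Promoters of listed genes had more CG dinucleotides than those of all coding genes. The median number of CG in the 300 bases was 22 for higher genes, 18.5 for lower genes and 13 for all 17492 coding genes of the RefSeq table, and the median GC content was 62.3%, 61% and 56.3%. Genes without detectable RNA in aorta are part of the last group, and their part in this gap was not tested. The letters TATAAA, on either strand, were found in 7.97% of promoters of higher genes, 11.8% of those of lower genes and 14.8% of all.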
